A study of Mus musculus with 6 samples.

Results

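Among the rows of the deposited count table, 8 genes were examined here: the angiopoietin genes Angpt1 and Angpt2, the related Angptl2, the Tie receptor genes Tek and Tie1, and the endothelial junction genes Pecam1, Cdh5 and Esam. They were chosen by symbol, and each of the 8 symbols matched 1 of the 54532 genes in the table. All 8 passed the expression filter and were tested. None of them passed an adjusted p of 0.05 between the genotypes. The members whose 95% interval lay above no change were Tek, with a fold change of 1.21 in Myα5KO over ITGA5 fl/fl (interval 1.02 to 1.42), and Pecam1, with 1.13 (1.02 to 1.25). An unadjusted edgeR p under 0.05 was held by these 2 of the 8 members and by 23.1% of all tested genes, a similar share.

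Angiopoietins are secreted ligands of TIE2, the receptor tyrosine kinase encoded by Tek, which is carried by endothelial cells and by a subset of perivascular macrophages. Angiopoietin-1, released mainly by mural and other stromal cells, activates TIE2 and keeps vessels quiescent, whereas angiopoietin-2, stored in endothelial cells, is a context-dependent antagonist that accompanies vessel sprouting. TIE1 binds no angiopoietin with high affinity and modulates TIE2. VE-cadherin (Cdh5), PECAM-1 (Pecam1) and ESAM (Esam) hold neighbouring endothelial cells together and guide leukocyte passage between them.

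The RNA-seq data comprised 6 libraries, 3 of ITGA5 fl/fl mice and 3 of Myα5KO mice on the C57BL/6 background. ITGA5 fl/fl mice carried Itga5 flanked by recombination sites and no Cre. Myα5KO littermates carried the same alleles and Cre recombinase driven by the lysozyme M promoter, which is active in macrophages, monocytes and neutrophils and not in endothelial cells. All mice were 12 weeks old and were studied after 7 days of permanent coronary occlusion, a model of non-reperfused infarction. Because no control carried Cre, the presence of Cre and the loss of Itga5 cannot be told apart. Infarcted hearts of individual mice were digested, neutrophils were depleted with beads against Ly6G, and cells bearing the myeloid integrin CD11b were then selected magnetically.

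Library totals lay between 15424451 and 18419287 counts. As a check of the labels, Itga5 had 568 to 653 CPM (counts scaled to library size, with TMM factors) in ITGA5 fl/fl libraries and 47.06 to 49.99 CPM in Myα5KO libraries (log2 fold change -3.64). The macrophage genes Csf1r, Cd68 and Adgre1 were abundant, with mean levels of 442, 694 and 397 FPKM (fragments per kilobase, scaled for depth, as deposited). Ly6g had 4 counts over the 6 libraries. All 17 endothelial markers of the list used here had counts in every library, so the isolate was not free of endothelial transcripts.

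The members were first ordered by level per gene length, averaged over the 6 libraries. Cdh5 was highest with 20.7 ± 1.33 FPKM (SD, n = 6), above 84.7% of tested genes. Pecam1 had 13.4 ± 1.02 FPKM, Tie1 8.999 ± 0.567, Esam 6.82 ± 1.01, Angptl2 4.39 ± 0.349, Tek 3.29 ± 0.435 and Angpt2 1.49 ± 0.426 FPKM. Angpt1 was lowest with 0.107 ± 0.0326 FPKM, and only 1.37% of tested genes lay below it. The ranges over libraries overlapped between Tie1 and Esam and between Angptl2 and Tek, and these neighbours were therefore not separated beyond their spread. All other neighbours in the order were separate. The level of Cdh5 was 4.31 to 5.29% of that of Csf1r, the macrophage colony-stimulating factor receptor, across libraries and overlapped between the genotypes, whereas Pecam1, at 2.74 to 3.79% of Csf1r, did not overlap.

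**Figure D1:**
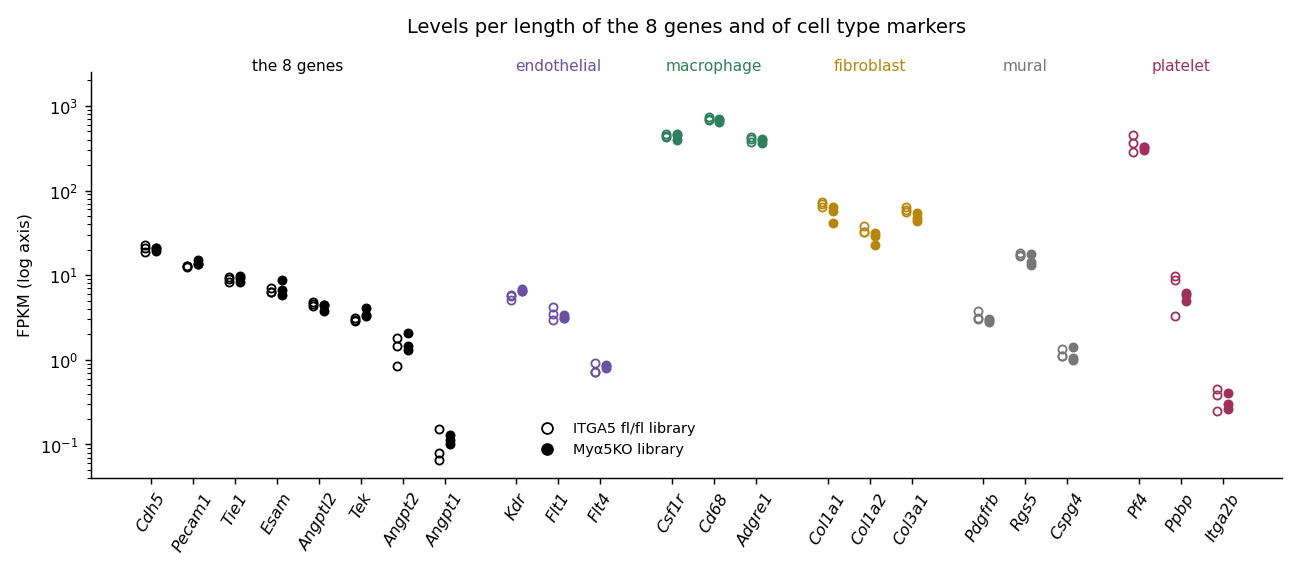
Levels in FPKM (log axis) of the 8 genes, ordered from Cdh5 to Angpt1, and of the first 3 genes of 5 cell type marker lists; open circles are ITGA5 fl/fl and filled circles Myα5KO libraries. The junction genes and Tie receptors, with means of 3.29 to 20.7 FPKM, lie well below the macrophage genes Csf1r, Cd68 and Adgre1. The endothelial markers drawn have means of 0.808 to 6.04 FPKM and the mural markers 1.18 to 16.3 FPKM. Angpt1 lies at 0.0654 to 0.154 FPKM.

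In order to examine the ligands, counts and CPM were compared in each library. Angpt1 (ENSMUSG00000022309, GRCm38 chromosome 15, 42424723 to 42676977, minus strand) had 12, 7 and 6 counts in ITGA5 fl/fl against 10, 11 and 13 counts in Myα5KO libraries. These numbers are near the limit of detection: the lowest, 6 counts, has an exact 95% Poisson interval of 2.2 to 13.1, and the highest, 13 counts, one of 6.92 to 22.2, for counting error only. The groups overlapped, and a change between 0.612-fold and 2.28-fold was within the 95% interval of the fit. An antisense gene, Gm17473, shares 14.2% of the exon bases of Angpt1 and had 0 counts in every library.

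Angpt2 (ENSMUSG00000031465, chromosome 8, 18690263 to 18741562, minus strand) was better measured. It had 6.70, 3.11 and 5.35 CPM in ITGA5 fl/fl against 5.38, 4.82 and 7.78 CPM in Myα5KO libraries. The lowest value was that of ITGA5 fl/fl replicate 2 and the highest that of Myα5KO replicate 3, and the other 4 libraries lay between them without order by genotype. The log2 fold change was 0.25 (SE 0.25, with an adjusted p of 0.586 by edgeR), and it was -0.0026 without ITGA5 fl/fl replicate 2 and 0.02 without Myα5KO replicate 3. Angpt2 lies within the span of Mcph1 on the opposite strand and shares 0 exon bases with it. Per length, Angpt2 exceeded Angpt1 by 10.7-fold to 22.1-fold across libraries, with overlapping groups.

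Angptl2 (ENSMUSG00000004105, chromosome 2, 33216069 to 33247717, plus strand) encodes a secreted angiopoietin-like protein that does not bind Tie receptors and for which the α5β1 integrin and the inhibitory receptor PIRB are known receptors. Its level was 29.0, 27.1 and 30.0 CPM in ITGA5 fl/fl against 28.2, 28.1 and 24.03 CPM in Myα5KO libraries. Groups overlapped, and Myα5KO replicate 3 was the lowest library. The log2 fold change of Angptl2 was -0.10 (SE 0.09, with an adjusted p of 0.545 by edgeR), with a 95% interval of 0.816-fold to 1.07-fold. Angptl2 thus ranked first in abundance among the 3 ligands in every library, with no change detected while Itga5, the gene of one chain of its receptor, fell to the CPM values given above. Pirb and Itgb1, which encode its other receptor chains, had log2 fold changes of 0.08 and -0.09 and were not called. Angptl2 lies within Ralgps1 on the opposite strand, with 0 shared exon bases.

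Both Tie receptors are transcribed from chromosome 4. Tek (ENSMUSG00000006386) spans 94739289 to 94874976 on the plus strand and Tie1 (ENSMUSG00000033191) spans 118471191 to 118490061 on the minus strand. Of the 8 genes, 3 (Angptl2, Tek and Tie1) have a promoter in the RefSeq table used here (build GRCm38.p6, 250 bases before and 50 after the RefSeq start). The promoters of Tek (chr4:94739039-94739338, plus strand) and Tie1 (chr4:118489800-118490099, minus strand) are shown because the groups stood apart for Tek and overlapped for Tie1. The Tek window surrounds the deposited start of Tek at 94739289. Most of the Tie1 window lies inside the deposited Tie1 span, which begins at 118490061 on the minus strand. The windows therefore cover unlike parts of the deposited genes. Both sequences read 5′ to 3′ with the letters GGAA, or TTCC for the other strand, in capitals. This is the core bound by ETS factors, a family that includes the endothelial regulator ERG.
Tek: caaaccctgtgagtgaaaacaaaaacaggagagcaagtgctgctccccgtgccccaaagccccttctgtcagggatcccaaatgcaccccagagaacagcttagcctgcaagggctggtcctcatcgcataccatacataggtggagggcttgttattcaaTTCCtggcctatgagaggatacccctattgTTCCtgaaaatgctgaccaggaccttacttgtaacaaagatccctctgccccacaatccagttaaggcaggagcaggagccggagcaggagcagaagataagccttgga
Tie1: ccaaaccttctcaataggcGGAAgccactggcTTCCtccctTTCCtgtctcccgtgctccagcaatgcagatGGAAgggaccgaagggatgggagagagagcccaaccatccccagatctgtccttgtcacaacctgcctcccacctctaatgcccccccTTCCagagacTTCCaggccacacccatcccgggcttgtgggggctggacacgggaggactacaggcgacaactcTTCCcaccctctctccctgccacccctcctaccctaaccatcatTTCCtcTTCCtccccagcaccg
Capitals mark 2 such cores in the Tek promoter and 9 in the Tie1 promoter, and no core overlaps another. The Angptl2 promoter, not shown, also holds 2 cores, and the groups overlapped for Angptl2. At least 1 core occurs in 95.98% of 32851 promoters of this length, with a median of 3. Of these promoters, 84.6% hold 2 or more and 1.59% hold 9 or more. A letter match is a description and not a bound site.

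The values of Tek were 13.5, 14.9 and 14.1 CPM in ITGA5 fl/fl against 16.0, 15.6 and 19.6 CPM in Myα5KO libraries. Every Myα5KO library lay above every ITGA5 fl/fl library, by a narrow margin for replicates 1 and 2. The log2 fold change was 0.27 (SE 0.11), which did not pass the threshold over all genes (edgeR adjusted p 0.16, with 0.0599 to 0.457 under the alternatives). Without Myα5KO replicate 3, the highest library, it was 0.16 (adjusted p 0.406). Tie1, in contrast, had 44.1, 46.9 and 41.3 CPM in ITGA5 fl/fl against 41.0, 45.3 and 48.6 CPM in Myα5KO libraries. Both the lowest and the highest value of Tie1 lay in the Myα5KO group. Its log2 fold change was 0.03 (SE 0.08, with an adjusted p of 0.878 by edgeR), with a 95% interval of 0.903-fold to 1.15-fold. The ratio of Tek to Tie1 per length was 0.319, 0.332 and 0.355 in ITGA5 fl/fl against 0.408, 0.360 and 0.420 in Myα5KO libraries. Per length, Tek over the endothelial marker Kdr was 0.501, 0.541 and 0.589 in ITGA5 fl/fl against 0.523, 0.513 and 0.601 in Myα5KO libraries. Here the groups overlapped, and Kdr itself was called higher. The ratio of Tek to Tie1 was formed after the values were seen, and neither ratio carries a test.

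Among the junction genes, Cdh5 and Pecam1 were the most abundant members. Cdh5 (ENSMUSG00000031871, chromosome 8, 104101625 to 104144511, plus strand) encodes VE-cadherin, the adhesion receptor of endothelial adherens junctions. It had 95.4, 89.2 and 80.1 CPM in ITGA5 fl/fl against 81.6, 87.6 and 90.8 CPM in Myα5KO libraries. The groups covered nearly the same range, and the log2 fold change was -0.03 (SE 0.08, with an adjusted p of 0.875 by edgeR; 95% interval 0.878-fold to 1.10-fold). Its sign turned with library-size scaling, to 0.06.

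Pecam1 (ENSMUSG00000020717, chromosome 11, 106654217 to 106750628, minus strand) is expressed not only by endothelial cells but also by platelets, monocytes and some macrophages. It had 80.4, 79.9 and 77.3 CPM in ITGA5 fl/fl against 85.5, 85.8 and 96.4 CPM in Myα5KO libraries. All Myα5KO libraries were thus above all ITGA5 fl/fl libraries. The log2 fold change of Pecam1 was 0.17 (SE 0.07, adjusted p of 0.142 by edgeR and 0.0304 to 0.662 under the alternatives) and fell to 0.11 without Myα5KO replicate 3. It was called only with library-size scaling, which raised the median log2 fold change of all tested genes from 0.015 to 0.095. Per length, Pecam1 reached 0.569, 0.605 and 0.651 of the Cdh5 level in ITGA5 fl/fl against 0.707, 0.661 and 0.717 of it in Myα5KO libraries, a ratio formed after the values were seen.

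Esam (ENSMUSG00000001946, chromosome 9, 37528078 to 37538319, plus strand) encodes an immunoglobulin-like adhesion molecule of endothelial tight junctions and platelets. It had 20.4, 18.3 and 18.1 CPM in ITGA5 fl/fl against 16.7, 19.3 and 25.3 CPM in Myα5KO libraries. The lowest and the highest library were both Myα5KO. The log2 fold change of 0.12 (SE 0.13, with an adjusted p of 0.657 by edgeR) turned to -0.07 when Myα5KO replicate 3 was left out.

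**Figure D2:**
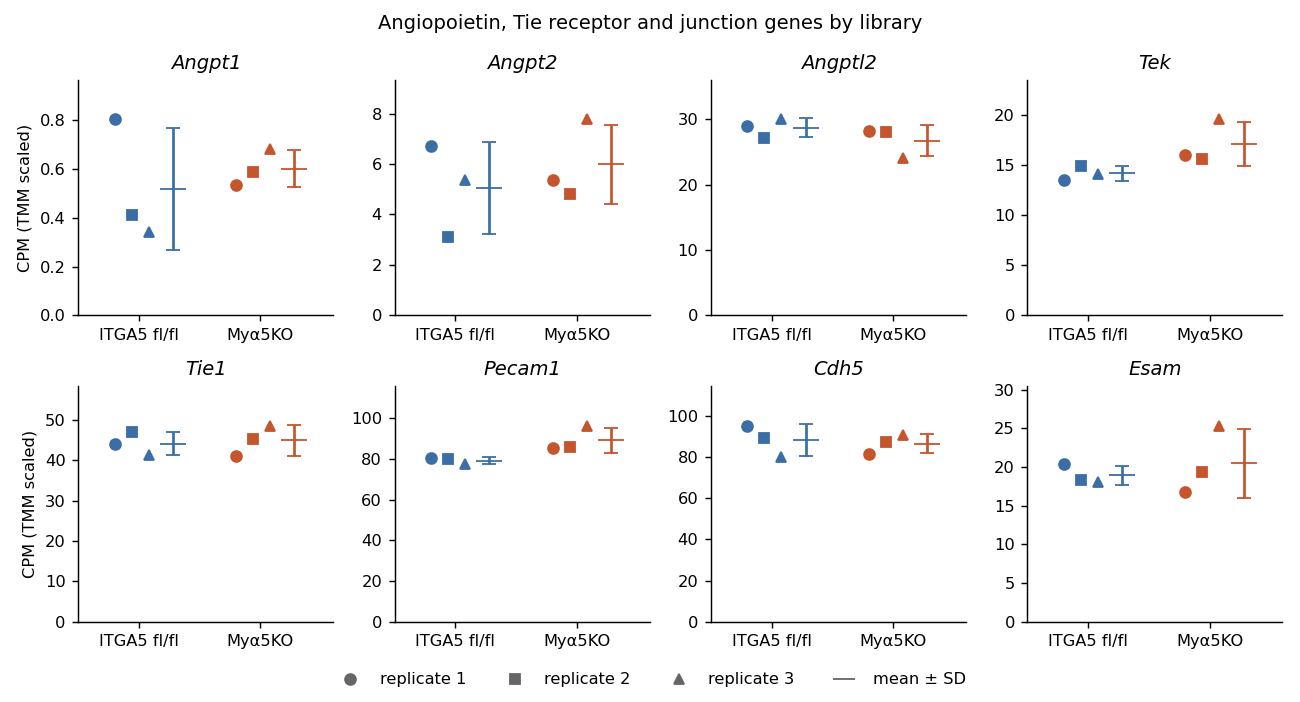
Expression of the 8 genes in CPM (TMM scaled) in each ITGA5 fl/fl and Myα5KO library; symbols mark replicate numbers, and the bar beside each group is its mean ± SD (n = 3). The groups stand apart for Tek and Pecam1 and overlap for the other 6 genes, and Myα5KO replicate 3 is the highest library for 5 of the 8.

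Over the 8 genes, 0 were called higher and 0 lower, and 8.75% of 14522 tested genes were called (edgeR). With only 8 genes, this count does not set the members apart from that share. DESeq2 also called 0 of the 7 to which it gave an adjusted p. At an unadjusted p under 0.05, edgeR had 2 of the 8 (Tek and Pecam1) and DESeq2 1, against 23.1% of all tested genes with edgeR. The 3 libraries of one group lay on one side of the other group for 2 of 8 members, close to the 28.6% found over all tested genes. Log2 fold changes were positive for 6 of 8 members and for 52.8% of all tested genes. They were negative for 2 members (Angptl2 and Cdh5), and the member median was 0.14 against 0.015 for all tested genes. Of the 6 positive members, Angpt2, Tie1 and Esam changed sign in fits with a library left out. The precision differed widely. The 95% intervals of Cdh5, Tie1, Angptl2 and Pecam1 excluded changes beyond 1.25-fold in either direction, whereas those of Angpt1 and Angpt2 reached 2.28-fold and 1.72-fold. The biological coefficient of variation estimated for each gene followed this order, at 6.18 to 7.44% for those 4 genes, 8.78% for Tek, 11.1% for Esam and 19.1 to 19.4% for the angiopoietins.

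**Figure D3:**
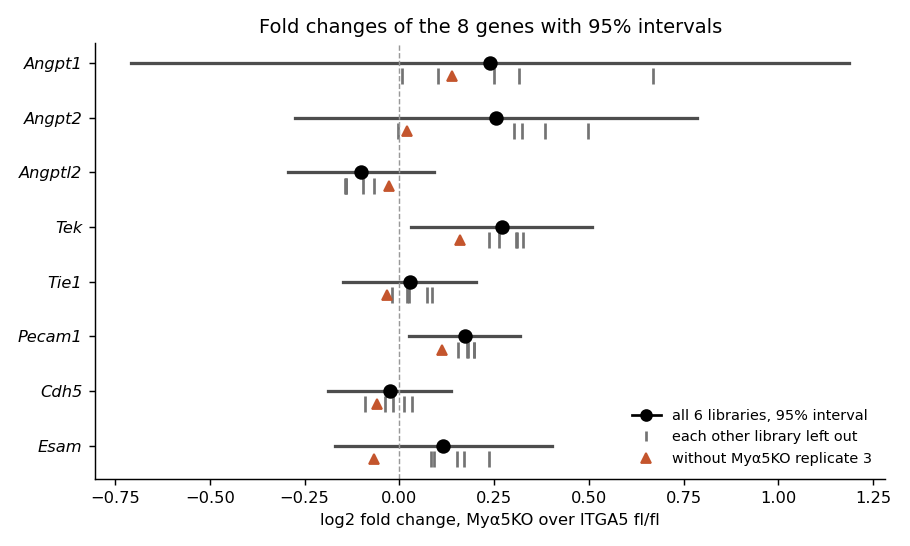
Log2 fold change (Myα5KO over ITGA5 fl/fl) of each of the 8 genes with its 95% interval from the edgeR fit on 6 libraries; ticks below are fits with each other library left out and triangles the fit without Myα5KO replicate 3. The intervals of Tek (0.03 to 0.51) and Pecam1 (0.03 to 0.32) lie above 0, and without Myα5KO replicate 3 the estimates of all genes but Angptl2 move down.

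Myα5KO replicate 3 held the highest value of 5 members (Angpt2, Tek, Tie1, Pecam1 and Esam) and of 8 of the 17 endothelial markers. The summed level of these markers was 482, 454 and 420 CPM in ITGA5 fl/fl against 452, 452 and 502 CPM in Myα5KO libraries. Each member was also expressed as a percentage of that sum, without a test. The largest term of the sum was Eng (91.8 to 101 CPM), and it includes Kdr and Ramp2, which were called higher. Tek was 3.14 ± 0.301% in ITGA5 fl/fl against 3.63 ± 0.233% in Myα5KO, and Pecam1 17.6 ± 0.858% and 19.0 ± 0.157% (SD, n = 3 each). The groups were apart for both, which were also apart in CPM, and overlapped for every other member. No share over all genes was formed for this measure. The part of endothelial cells in these values was not tested. With libraries scaled to the endothelial markers instead of TMM, the log2 fold changes of Tek and Pecam1 were 0.21 (edgeR adjusted p 0.457) and 0.12 (edgeR adjusted p 0.662). In bulk RNA, fewer cells of a type and less RNA per cell cannot be told apart.

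Further genes of the pathway were examined in 6 lists with 50 genes, of which 49 were in the table and 44 were tested. In all, 0 were higher and 5 lower in Myα5KO libraries, including Itga5, where 3.56% of all tested genes were higher and 5.19% lower. Among 4 tested angiopoietin-like genes, 0 were called. Angptl4, which encodes an inhibitor of lipoprotein lipase, was the most abundant of them at 6.08 FPKM, followed by Angptl7 at 0.623 FPKM, and their log2 fold changes were 0.10 and -0.41. Angpt4, Angptl1 and Angptl8 were below the filter.

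Of 12 tested partners and transducers of the Tie receptors, 2 were lower. Tnip2 encodes the TIE2-binding NF-κB inhibitor ABIN-2. It had 97.3, 89.0 and 86.4 CPM in ITGA5 fl/fl against 75.6, 76.7 and 69.4 CPM in Myα5KO libraries (log2 difference -0.30, adjusted p 0.0185 by edgeR). With 1 library left out at a time, Tnip2 was called in 4 of 6 fits (-0.33 to -0.25) and lost without ITGA5 fl/fl replicate 1 or 2. Pik3r1, a regulatory subunit of PI-3 kinase, fell by 0.27 on the log2 scale (adjusted p 0.0341) but was called in 1 of those 6 fits, the 1 without Myα5KO replicate 1 (-0.33 to -0.20 in all). Ptprb, the endothelial phosphatase VE-PTP that dephosphorylates TIE2, had a log2 difference of -0.0029 with an adjusted p of 0.989. Both calls were also lost with library-size scaling (adjusted p 0.0547 for Tnip2 and 0.0981 for Pik3r1) and with limma on log2(FPKM + 1) (0.0647 and 0.0889). The median of the list was -0.07.

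Adherens junction genes showed 0 calls among 9. The catenin genes Ctnna1 and Ctnnb1, the most abundant of them at 60.4 and 56.7 FPKM and expressed by most cell types, had log2 fold changes of -0.04 and 0.07. Among 12 tested tight junction and leukocyte passage genes, 2 were lower. Cldn5 encodes the main claudin of endothelial tight junctions. It had 23.3, 26.0 and 28.1 CPM in ITGA5 fl/fl against 17.2, 17.3 and 22.8 CPM in Myα5KO libraries (log2 difference -0.44, adjusted p 0.0356 by edgeR). It was called in 2 of the 6 leave-one-out fits (-0.58 to -0.37) and lost without ITGA5 fl/fl replicate 2 or 3 or Myα5KO replicate 1 or 2. Library-size scaling (adjusted p 0.0702) and limma on log2(FPKM + 1) (0.088) ended this call too. The median of the list was -0.14.

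Genes listed as markers of Tie2-expressing macrophages were examined next. Mrc1, Cd163, Lyve1 and Stab1, genes of perivascular macrophages, had log2 fold changes of -0.12, 0.20, 0.04 and 0.10, and 0 of the 4 were called (edgeR; 0 also at an unadjusted p under 0.05). Stab1 and Mrc1 were abundant, with 175 and 143 FPKM, far above the 3.29 FPKM of Tek. In bulk RNA, the levels of these genes cannot be assigned to cells that express Tek.

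**Figure D4:**
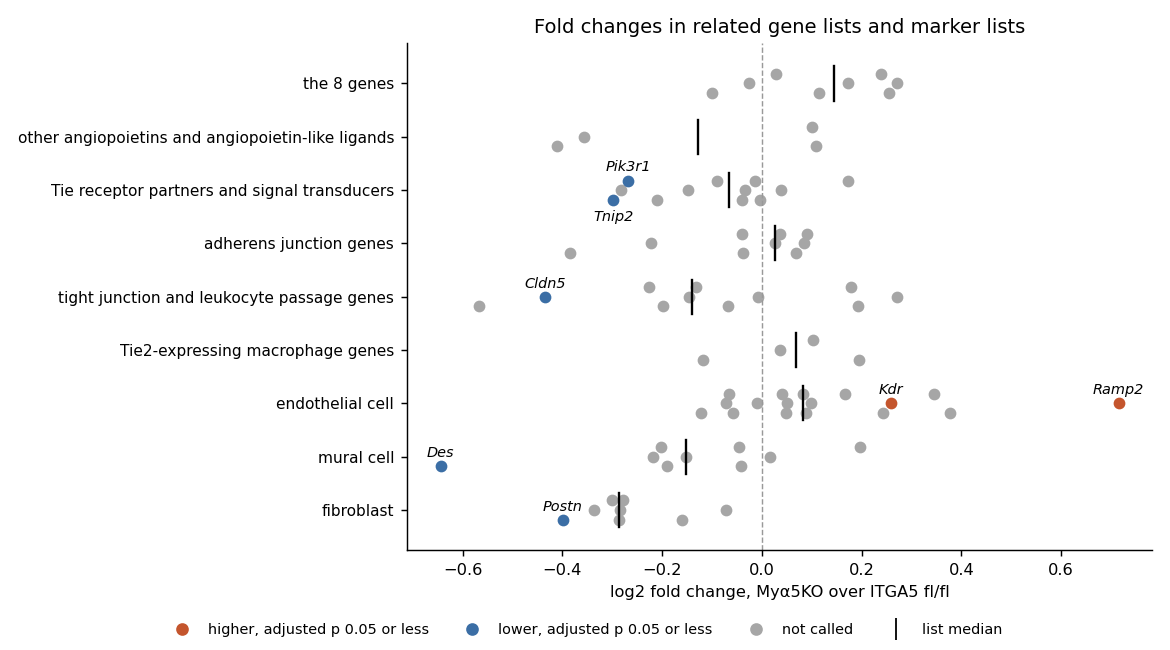
Log2 fold change (Myα5KO over ITGA5 fl/fl) of the tested genes among the 8 genes, in 5 of the pathway lists (1 tight junction gene is not drawn) and in 3 marker lists; colours mark genes called higher or lower and black ticks the medians over all tested genes of each list. No member is called, while Tnip2, Pik3r1, Cldn5, Des and Postn are lower and Kdr and Ramp2 are higher.

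Cell type markers were then set beside the members. Of 17 endothelial markers, 2 were higher and 0 lower, with a median log2 fold change of 0.08. Kdr, the VEGF receptor-2 gene, had 51.5, 52.9 and 45.7 CPM in ITGA5 fl/fl against 58.7, 58.3 and 62.4 CPM in Myα5KO libraries. Its log2 difference was 0.26 (adjusted p 0.0433 by edgeR), but it was called in 0 of the 6 leave-one-out fits (0.19 to 0.30). Ramp2, which encodes a partner of the adrenomedullin receptor, rose by 0.72 on the log2 scale (adjusted p 0.0143) and was called in 5, all but the fit without ITGA5 fl/fl replicate 2 (0.53 to 0.83 in all). The remaining 15 were not called, with log2 fold changes from -0.12 (Flt1) to 0.38 (Tal1, adjusted p 0.0828, groups apart), among them 0.09 for Flt4 and 0.35 for Egfl7. The call of Kdr was also lost with DESeq2 (adjusted p 0.0612), and those of Kdr and Ramp2 with limma on log2(FPKM + 1) (0.105 and 0.0654).

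Stromal, platelet and leukocyte markers were summed in the same way. Fibroblast markers, which include Col1a1, Col1a2 and Col3a1, summed to 1620 to 1899 CPM in ITGA5 fl/fl against 1211 to 1579 CPM in Myα5KO libraries, with 1 of 8 called (Postn, lower). Mural cell markers, which include Pdgfrb, Rgs5 and Cspg4, summed to 190.3 to 210.3 and 161 to 202 CPM, with 1 of 9 called (Des, lower). Platelet markers summed to 218 to 346 and 229 to 253 CPM with 0 of 6 tested genes called, and nearly all of this was Pf4 (207 to 328 CPM), a gene that macrophages also express, whereas Itga2b had 1.34 to 2.45 CPM and Gp1bb and Gp6 were at 0 counts in all libraries. Cardiomyocyte markers summed to 13.9 to 14.7 and 7.97 to 8.52 CPM, with Actc1 and Tnnt2 lower. Neutrophil markers summed to 176 to 207 and 214 to 279 CPM, most of it Csf3r (141 to 179 CPM, not called). Of the 5 tested, S100a8 and S100a9 were higher, the latter not with DESeq2 (adjusted p 0.0778), whereas Retnlg had a log2 fold change of -0.65 and was not called. T, NK and B cell markers summed to 48.7 to 76.2 and 75.6 to 122.6 CPM, with overlapping groups. Macrophage markers summed to 10387 to 10509 and 9846 to 10344 CPM, with Fcgr1 higher, and the log2 ratio of their means turned from -0.04 to 0.04 with library-size scaling. Leaving out ITGA5 fl/fl replicate 1 ended the calls of Postn, Tnnt2 and Fcgr1, replicate 2 those of Fcgr1 and S100a9, and replicate 3 those of Postn, Tnnt2 and Fcgr1. Leaving out Myα5KO replicate 1 ended that of Tnnt2, replicate 2 those of Tnnt2 and Fcgr1, and replicate 3 that of Postn. Over these fits the log2 fold changes ran from -0.50 to -0.26 for Postn, -0.79 to -0.62 for Tnnt2, 0.24 to 0.29 for Fcgr1 and 1.06 to 1.88 for S100a9. With limma on log2(FPKM + 1) the adjusted p was 0.121 for Postn, 0.0532 for Fcgr1, 0.0831 for S100a8 and 0.128 for S100a9, and with library-size scaling it was 0.0508 for Postn. The part of any of these cells in the values of Tek, Pecam1 or Angptl2 was not tested.

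Finally, each member was compared with 105 tested genes of the lists by the root mean square difference of log2 CPM, centred on each gene's mean, over the 6 libraries. Closest to Cdh5 were Ptprb (0.0424) and Vwf (0.0593), both endothelial genes. Closest to Pecam1 were Kdr (0.0710) and Ctnnd1 (0.0756), and closest to Tek were Tjp1 (0.0827) and Kdr (0.0982). For Tie1 they were Jup (0.0640) and Cd34 (0.0641), for Esam Myh11 (0.0954) and Cd34 (0.111), for Angptl2 Ptpn11 (0.0531) and Mrc1 (0.0540), for Angpt2 Plvap (0.288) and Mmrn2 (0.314), and for Angpt1 Mmrn2 (0.207) and Csf3r (0.232). The root mean square deviation of each member from its own mean was 0.405 for Angpt2, 0.343 for Angpt1, 0.189 for Esam and 0.172 for Tek. It was 0.104 for Pecam1, 0.101 for Angptl2, 0.0894 for Tie1 and 0.0869 for Cdh5. A small distance can therefore also come from genes that vary little. With 6 libraries made by 1 isolation protocol these distances describe the libraries only.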

How the data were processed

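Per the labels and the methods of the study, the authors cleaned 150 base paired-end NovaSeq reads of adapters and of reads of low quality, aligned them to GRCm38.p6 with TopHat2 2.0.9 and obtained read counts per gene with HTSeq 0.6.1. The labels also list Cufflinks 2.1.1. Strand and multi-mapping settings are not given in the sources used here. The deposited counts carry no normalization. The deposited FPKM values equal the count divided by gene length and by 1 factor for each library, proportional to the DESeq2 size factor. The deposited gene length equals the exon union in GENCODE M21 for all 8 genes.

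Groups and replicate numbers were taken from the sample titles. The edgeR 4.0.16 quasi-likelihood test (R 4.3.3, TMM, minimum count 10, minimum total 15, no covariate) kept 14522 of the 27687 genes with a count, out of 54532 in the table. P-values are two-sided and Benjamini-Hochberg adjusted over all tested genes, and an adjusted p of 0.05 or less is a call. DESeq2 1.42.0, the tool of the study, limma 3.58.1 on FPKM, other scalings and filters, the replicate number as a block and each library left out were alternatives. The fit was tested on simulated data with 200 of 14522 genes changed. It called 12.8% of genes changed by 0.3 on the log2 scale, 51% of those changed by 0.5, 75.4% at 1 and 98.1% at 2. The simulation gave 133 calls against 1271 in the data and pooled all expression levels. Its rates are therefore not the power for a given member. Replicate libraries differed beyond counting noise (chi-square per degree of freedom of 5.15 or more). Counts lack molecular identifiers. The Poisson intervals given for Angpt1 counts cover counting error only, whereas the edgeR intervals include the estimated spread between libraries.

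The 8 genes and all lists were chosen with earlier results of these data known. The rule for naming genes took the 8 members, Itga5, listed genes that were called, the 2 most abundant genes of a pathway list with no call, the first 3 markers of each cell type and the 2 nearest listed genes of each member. Other genes were named after their values were seen. Called genes of the tight junction list and of the T, NK and B cell list that are not named are not reported here. Cd99 of the tight junction list matched no row of the table and was not analysed here. Promoters come from RefSeq, and gene overlaps from GENCODE M21.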

Additional observations from a re-analysis of the deposited data

How the results depend on the processing

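Of 124 values of the 8 genes under alternatives, 115 kept their direction and their side of the threshold, 1 crossed it and 8 changed sign. Libraries scaled by their totals called 1 of the 8 (Pecam1, log2 fold change 0.25) and 2 of the pathway genes, and shifted Cdh5 to 0.0551, with 1212 of all genes higher and 518 lower against 517 and 754; all other settings, each left-out library included, called 0 of the 8. On FPKM values limma called 1 pathway gene at each pseudocount (472 and 448 genes in all), and the fits without a library called 2 to 6 of them against 5 with all libraries (616 to 1091 genes in all). The cause was not tested. Cdh5 ran from -0.0918 to 0.0323, Tie1 from -0.0321 to 0.0848, Esam from -0.0680 to 0.24 and Angpt2 from -0.0026 to 0.50 over the fits without a library, and scaling to endothelial markers, chosen after seeing the data, gave -0.0290 for Tie1, with 180 genes higher and 628 lower. Log2 ratios of marker sums moved to -0.71 for cardiomyocytes and 0.0416 for macrophages with library-size scaling and to 0.81 for neutrophils with summed FPKM. The order of the members was the same per kilobase of TMM-scaled counts. With the replicate number as a block, 0 of the 8 and 5 pathway genes were called and 1181 genes in all against 1271; the correlation of deviations of same-numbered libraries was between -0.06 and 0.05, and not every library correlated best with its own number, so the numbers were not taken to pair the libraries. Angpt1 had no value with DESeq2, on the FPKM scale or with 10 counts in every library. With 59 counts of Angpt1 in all, fold changes from 0.612 to 2.28 lay within its interval.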
